A study of Homo sapiens with 8 samples.

Results

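Intergenic m6A peaks lying within 10 kb of a gene were examined in chromosome-associated RNA of the human embryonic kidney cell line HEK293T. A peak belonged to this set if it lay on chromosomes 1 to 22 or X, overlapped the body of no RefSeq protein-coding or long noncoding RNA (lncRNA) gene, and had the nearest bound of such a gene at most 10 kb away. The METTL3 knockout list held 1352 such peaks among 23937 (5.65%) and the wild-type list 1669 among 29084 (5.74%), so that 3021 of 53021 peaks were described in all. The rest lay mainly in gene bodies (19886 in the knockout and 24712 in wild type) or farther than 10 kb from a gene (2599 in the knockout and 2624 in wild type). The study had 8 samples, namely 2 replicates each of knockout IP, knockout input, wild-type IP and wild-type input. Both genotypes were untreated HEK293T cells, METTL3-/- or parental, and the labels give neither the deleted stretch of METTL3 nor whether the knockout line is 1 clone. The IP is the RNA that an m6A antibody kit pulled down, and the input is the same RNA before that step. The 2 deposited lists give 1 set of peaks per genotype and no value per replicate, so no spread between replicates could be given and no comparison below is a test of genotype. All intervals are 95% intervals that cover counting error only.

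N6-methyladenosine is written on nascent RNA by a complex whose catalytic subunit is METTL3, mostly at adenosines inside a GGAC or closely related motif. RNA that stays on chromosomes includes unspliced transcripts, transcripts that run past the 3′ end of a gene before polymerase is released, and unstable RNAs that start upstream of promoters and run away from the gene. A peak just outside a gene can therefore lie on RNA of that gene, on RNA of the opposite strand or on a separate transcript, and the strand of the peak separates some of these cases.

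A small set of these peaks reached into the 300-base windows that RefSeq promoter sequences cover, from 250 bases before to 50 after a gene's start (GRCh38.p14), and only there could the letters under a peak be read. In the knockout 18 peaks touched 19 such windows and in wild type 24 peaks touched 26. Of these peaks, 10 of the 18 in the knockout and 14 of the 24 in wild type ran on the strand opposite to the gene. A peak touching several windows was counted once, for the first gene by name. Below are stretches shared by window and peak for 6 genes, chosen among the 5 of highest fold in each list, written 5′ to 3′ on the strand of the peak with every GGAC in capitals. They show promoter-side peaks that both lists held (DDX41, UEVLD) and a knockout peak on the gene's own strand (PGK1). They also show wild-type peaks with and without the motif (MRPL20, SRSF1). The wild-type peak of LINC00940 had a partner in the knockout list, but that partner was not a near-gene intergenic peak.
DDX41 in the knockout, chr5:177517032-177517211, plus strand: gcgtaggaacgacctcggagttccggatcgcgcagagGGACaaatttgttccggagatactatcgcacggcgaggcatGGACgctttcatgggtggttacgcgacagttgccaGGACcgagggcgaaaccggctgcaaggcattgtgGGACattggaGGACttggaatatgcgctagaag
UEVLD in the knockout, chr11:18588852-18588984, plus strand: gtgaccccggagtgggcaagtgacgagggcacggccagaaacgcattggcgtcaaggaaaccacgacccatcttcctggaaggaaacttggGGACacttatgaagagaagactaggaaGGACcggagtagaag
PGK1 in the knockout, chrX:78103998-78104084, plus strand: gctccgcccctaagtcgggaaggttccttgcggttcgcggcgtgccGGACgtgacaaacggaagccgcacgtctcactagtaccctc
LINC00940 in wild type, chr12:1936624-1936825, minus strand: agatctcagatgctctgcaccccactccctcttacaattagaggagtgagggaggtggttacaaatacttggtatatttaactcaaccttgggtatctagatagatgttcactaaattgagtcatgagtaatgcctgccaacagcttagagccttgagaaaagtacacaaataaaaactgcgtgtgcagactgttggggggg
MRPL20 in wild type, chr1:1407441-1407543, plus strand: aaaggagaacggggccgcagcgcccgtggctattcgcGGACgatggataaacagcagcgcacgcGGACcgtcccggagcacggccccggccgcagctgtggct
SRSF1 in wild type, chr17:58007248-58007496, plus strand: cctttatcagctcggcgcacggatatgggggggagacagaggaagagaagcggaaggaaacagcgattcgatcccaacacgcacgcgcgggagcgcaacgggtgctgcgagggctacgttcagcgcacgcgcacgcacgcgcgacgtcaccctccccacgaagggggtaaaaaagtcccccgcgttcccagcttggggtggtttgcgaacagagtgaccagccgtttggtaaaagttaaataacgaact

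The stretch beside DDX41, which encodes a DEAD-box RNA helicase, held 5 GGAC in 180 bases and ran opposite to the gene. Its peak had a fold of IP over local input of 10.1 in the knockout and 7.78 in wild type, on 40 IP reads at the knockout summit and 24 at the wild-type summit. The fold is the authors' value for each peak, with a constant added to IP and to local input before division. UEVLD, which encodes a protein with a ubiquitin-conjugating-like domain, had a peak opposite to the gene with a fold of 8.92 in the knockout and 10.3 in wild type, and its stretch held 2 GGAC. PGK1, a glycolytic kinase, had a knockout peak on its own strand with a fold of 9.67, 1 GGAC and no wild-type partner. In the wild-type list, MRPL20, a protein of the mitochondrial ribosome, had an opposite-strand peak with a fold of 10.4 and 2 GGAC. The wild-type peaks beside SRSF1, a splicing factor, and the lncRNA LINC00940 had folds of 10.3 and 13.3, and neither stretch held a GGAC. In the stretches themselves, GGAC was present at 10 of 19 knockout windows (52.6%) and 14 of 26 wild-type windows (53.8%). Among the 5 of highest fold in each list, those not written out above also held 0. These were the knockout stretch between MAT2A and PARTICL and the wild-type stretches of MED16 and MTMR1. Over the whole windows, which reach beyond the peak, GGAC on the strand of the peak was present in 18 of 19 knockout windows (94.7%) and 20 of 26 wild-type windows (76.9%). Among all 35116 promoter windows it was present in 66.3% on the gene strand and 66.1% on the opposite strand. The longer GGACT, each of which also counts as a GGAC, was in 7 of 19 knockout windows (36.8%) and 9 of 26 wild-type windows (34.6%), against 25.3% of all windows on either strand. In the stretches under the peaks, GGACT was in 3 of 19 in the knockout (15.8%) and 4 of 26 in wild type (15.4%). Both motifs were searched on the strand of the peak for the windows it touched and on both strands for all windows, and a match is only a run of letters. The same knockout peak touched the windows of MAT2A and PARTICL. These motif shares rest on few windows and carry no interval. Stretches of matched length were not counted among all windows, so enrichment of a motif was not tested.

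The fold and the p-value of a peak together gave the whole number of IP reads at its summit and the input level it was set against. A near-gene intergenic peak rested on a median of 24 IP reads in the knockout and 19 in wild type, fewer than the gene-body medians of 32 in the knockout and 25 in wild type. Its local input was a median of 0.400 scaled reads in the knockout and 0.460 in wild type, against 1.00 in gene bodies of either list. The constant in the fold weighs more where the input is low. The median fold of near-gene peaks was close to that of gene-body peaks, at 7.06 against 7.06 in the knockout and 7.35 against 7.28 in wild type. Folds ran between 2.10 and 48.0 in the knockout and between 1.81 and 52.6 in wild type. One IP read weighed 0.479 on the plus and 0.438 on the minus strand of the knockout list and 0.607 and 0.572 in wild type, so folds of the lists are set side by side below but not compared. The median peak was 203 bases long in the knockout and 201 in wild type.

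The 1352 knockout peaks lay beside 1128 genes and the 1669 wild-type peaks beside 1410. The nearest gene was protein-coding for 886 knockout and 1100 wild-type peaks and an lncRNA for the other 466 and 569. Most gene sides held a single peak (1017 of 1165 in the knockout and 1278 of 1448 in wild type), and 28 knockout and 35 wild-type sides held 3 or more. A side here is downstream or upstream on the strand of the peak, so it can join peaks at both ends of a gene. A second gene lay within 10 kb for 22.9% of knockout and 25.1% of wild-type peaks, for which the assignment to the nearest gene is less certain. RefSeq pseudogenes, which the definition of a gene did not count, overlapped 171 knockout peaks (12.6%) and 193 wild-type peaks (11.6%). At the limit of 10 kb, the outermost knockout peak inside lay 9991 bp from CHD1L with a fold of 9.91 and the first outside lay 10005 bp from DCTN6 with a fold of 6.94. In wild type these were 9997 bp from ZNF721 with a fold of 12.0 and 10021 bp from LOC105377095 with a fold of 10.4. METTL3 itself carried 0 peaks in its body on its own strand in the knockout list and 2 in the wild-type list.

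The first question was on which side of the gene these peaks lay. On the strand of the peak, the side beyond a gene's downstream bound held 860 of 1352 knockout peaks (63.6%, Clopper-Pearson interval 61.0 to 66.2) and 1085 of 1669 wild-type peaks (65.0%, 62.7 to 67.3). The same 322 Mb of intergenic sequence lies on either side, so this amounts to 2.67 against 1.53 peaks per Mb in the knockout. The wild-type list held 3.37 against 1.81 per Mb. Beside coding genes the downstream share was 68.4% in the knockout and 69.6% in wild type. Beside lncRNA genes it was 54.5% (49.9 to 59.1) in the knockout and 56.1% (51.9 to 60.2) in wild type. The downstream share was highest between 1 and 2 kb from the gene, at 70.7% of 184 knockout peaks and 73.2% of 239 wild-type peaks. Between 5 and 10 kb it was 60.7% in the knockout and 62.1% in wild type, where the intervals of these distances overlapped in the knockout (63.5 to 77.1% at 1 to 2 kb and 56.3 to 64.9% at 5 to 10 kb) but not in wild type (67.1 to 78.7% and 58.1 to 66.0%).

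The strand of the gene, known for 976 knockout and 1242 wild-type peaks from the promoter windows, divided the peaks further. Peaks beyond the 3′ end on the gene's own strand made up 481 of 976 in the knockout (49.3%, 46.1 to 52.5) and 597 of 1242 in wild type (48.1%, 45.3 to 50.9). The other 3 positions shared the rest almost evenly. Beyond the 3′ end on the opposite strand lay 177 knockout and 225 wild-type peaks. Beyond the 5′ end lay 164 knockout and 223 wild-type peaks on the opposite strand, the divergent orientation, and 154 knockout and 197 wild-type peaks on the gene's strand. Among peaks on the strand of their gene, 75.7% of knockout and 75.2% of wild-type peaks were beyond the 3′ end. Among peaks on the opposite strand, those on the downstream side of the peak were 48.1% in the knockout and 49.8% in wild type, with intervals of 42.7 to 53.5% in the knockout and 45.0 to 54.5% in wild type that include an even split. Where the strand of the gene was known, the excess on the downstream side thus lay in peaks on that strand. The peaks beside genes of unknown strand, 215 downstream against 161 upstream in the knockout and 265 downstream against 162 upstream in wild type, cannot be placed in this way.

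Per Mb of intergenic sequence at these distances, the knockout list held 3.99 peaks beyond the 3′ end on the gene's strand (exact Poisson interval 3.64 to 4.37). This was 2.72 times the 1.47 per Mb (1.26 to 1.70) on the opposite strand of the same sequence. In wild type it was 4.95 (4.57 to 5.37) against 1.87 (1.63 to 2.13), or 2.65 times. The density on the gene's strand was lowest at the largest distance, with 4.31, 4.42, 4.38 and 3.44 per Mb in the knockout at 0 to 1, 1 to 2, 2 to 5 and 5 to 10 kb. In wild type the same distances held 5.98, 6.31, 5.13 and 4.03 per Mb. At 5 to 10 kb the strand ratio was still 2.28 in the knockout and 2.41 in wild type. Divergent peaks beyond the 5′ end were instead densest in the first 2 kb of the wild-type list, with 3.71 (2.78 to 4.84) and 3.19 per Mb against 1.56 and 1.74 farther out. In the knockout the same orientation had 1.85 (1.22 to 2.70), 2.26, 1.38 and 1.42 per Mb. The 2 intervals for the first kb do not overlap, but the wild-type list holds more peaks in all and no replicate values exist, so this describes 2 lists only. Beyond the 3′ end on the opposite strand, the first kb held 3.05 per Mb in wild type (2.28 to 3.99) against 1.73 in the knockout (1.16 to 2.46), with intervals that overlap. On the gene's strand the first kb likewise held more wild-type peaks, with 5.98 against 4.31 beyond the 3′ end and 2.40 against 2.06 beyond the 5′ end.

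**Figure D1:**
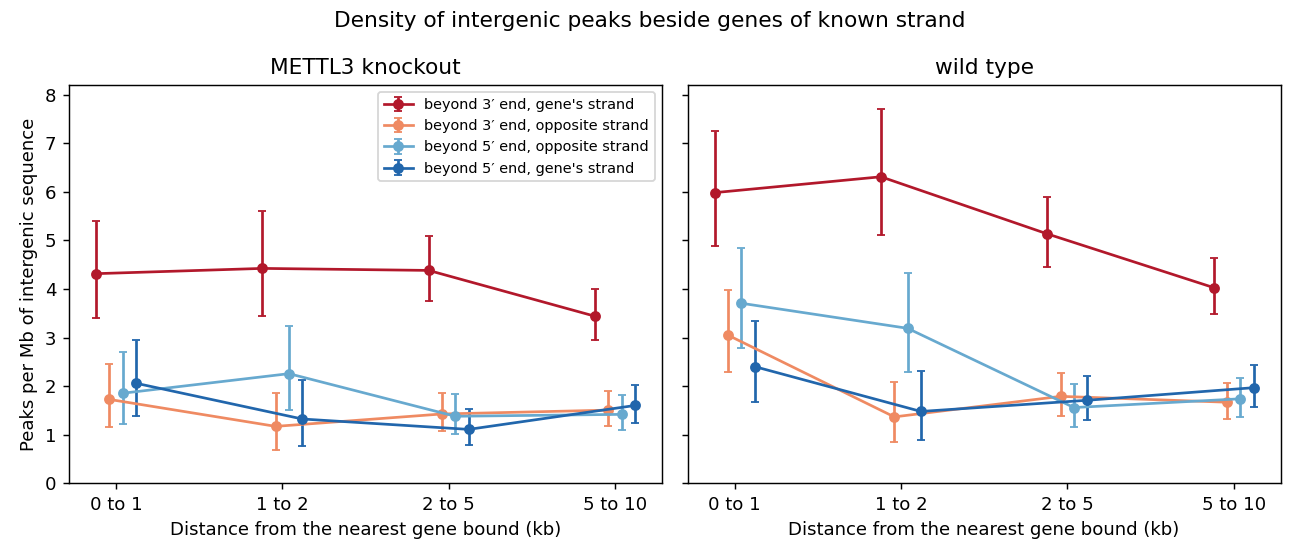
Peaks per Mb of intergenic sequence (vertical axis) by distance from the nearest gene bound in kb (horizontal axis), for the METTL3 knockout list on the left and the wild-type list on the right. Points are densities and bars are exact 95% Poisson intervals. Colours mark the 4 positions relative to the gene, and peaks beyond the 3′ end on the gene's strand lie above the others in every bin of both lists.

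Most genes with a peak beyond the 3′ end on their own strand also had a peak in the body. Among the 407 genes with such a knockout peak on their strand, 228 (56.0%, 51.0 to 60.9) had a body peak on their strand in the same list, against 21.5% of all 27195 genes of known strand. In wild type it was 323 of 515 genes (62.7%, 58.4 to 66.9) against 24.6% of all. Genes with a peak on the opposite strand beyond the 3′ end had a body peak on their own strand in 33.1% of 157 cases in the knockout and 25.6% of 203 in wild type. For divergent peaks beyond the 5′ end it was 27.6% in the knockout and 33.3% in wild type, and for peaks beyond the 5′ end on the gene's strand 34.1% in the knockout and 40.5% in wild type. Long genes offer more room for a body peak, and the median length was 36535 bp for the 407 genes of the knockout and 35332 bp for the 515 of wild type, against 16427 bp over all. Coding genes were therefore compared within classes of length. Among coding genes of 20 to 100 kb, 70.2% (62.5 to 77.1) of 161 with a knockout peak beyond the 3′ end had a body peak, against 42.2% of all 6166 of that length. In wild type it was 74.5% (67.7 to 80.5) of 192 against 49.0%. Over 100 kb it was 68 of 74 genes in the knockout (91.9%, against 67.1% of all) and 101 of 101 in wild type (100%, 96.4 to 100, against 70.1%). Under 20 kb it was 25.3% in the knockout against 11.8% of all, and 38.3% in wild type against 15.3%. Other positions were partly above the share of all genes too. Between 20 and 100 kb, coding genes with a peak beyond the 5′ end had a body peak at 16 of 32 genes (opposite strand) and 53.1% (gene's strand) in the knockout, and at 63.6% (opposite strand) and 64.1% (gene's strand) in wild type. For peaks beyond the 3′ end on the opposite strand it was 50.9% in the knockout and 41.4% in wild type, and under 20 kb 25.6% in the knockout and 19.0% in wild type. Over 100 kb the other positions rest on few genes. Beyond the 5′ end it was 76.2% (opposite strand) and 77.8% (gene's strand) in the knockout, and 83.3% and 85.7% in wild type. Beyond the 3′ end on the opposite strand it was 47.1% in the knockout and 73.3% in wild type. The lists hold no RNA levels for these genes.

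**Figure D2:**
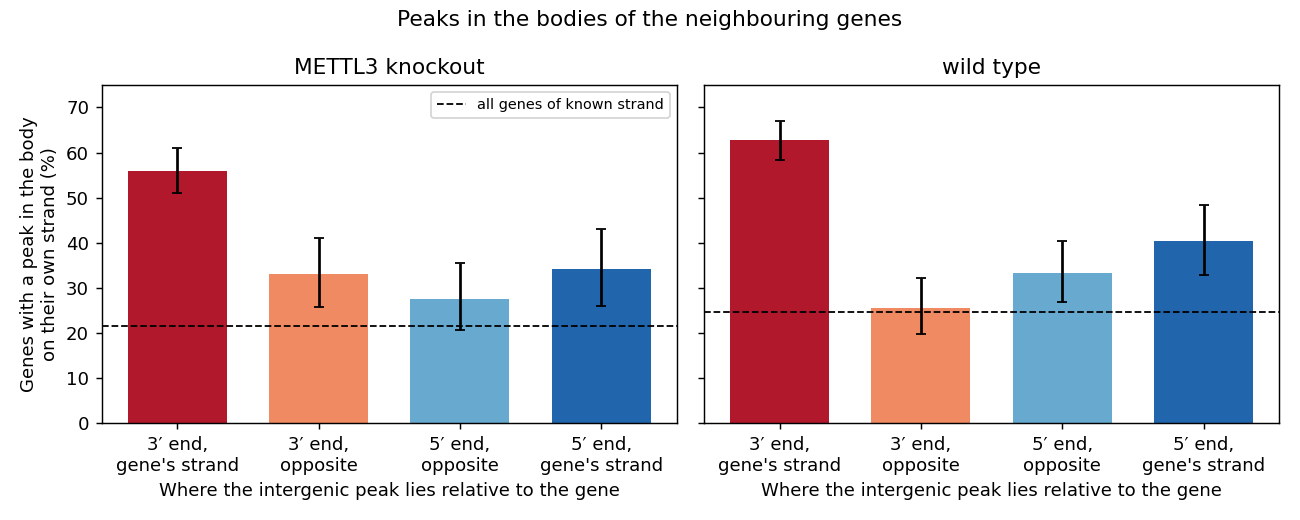
Percentage of neighbouring genes with a peak in the body on the gene's own strand (vertical axis), by the position of the intergenic peak relative to the gene, for the METTL3 knockout list on the left and the wild-type list on the right. Bars start at 0, error bars are 95% Clopper-Pearson intervals and the dashed line is the share over all 27195 genes of known strand. Genes with a peak beyond the 3′ end on their strand stand highest, at 56.0% in the knockout and 62.7% in wild type.

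The next question was how many near-gene intergenic peaks had a partner in the other list, meaning a peak of the other genotype with at least 1 base in common and the same strand. A partner was found for 285 of 1352 knockout peaks (21.1%, 18.9 to 23.4), while 24.8% of all knockout peaks on these chromosomes had one. In wild type 292 of 1669 had a partner (17.5%, 15.7 to 19.4), while 20.4% of all did. Gene-body peaks had a partner more often, at 26.2% in the knockout and 21.1% in wild type, and peaks farther than 10 kb in 16.2% of either list. Among the 10000 strongest peaks of each list the near-gene share in wild type was 26.3% (22.2 to 30.7), and the difference from gene-body peaks was 0.119 percentage points (−4.08 to 4.63). In the knockout the same setting gave a near-gene share of 23.3% (19.6 to 27.4) and a difference of −3.65 points (−7.49 to 0.524). Where a partner existed it lay close, since the summits of 285 pairs were a median of 32 bp apart (quartiles 11 and 81) and 62.5% were within 50 bp.

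The partnered share moved with read support. Near-gene peaks with a partner had a median of 44 IP reads in the knockout and 33 in wild type, against 21 in the knockout and 17 in wild type for those without. From the class of up to 15 reads to that of over 70, the partnered share of near-gene knockout peaks was 4.91, 11.8, 23.6, 38.0 and 60.9%, and that of knockout gene-body peaks 5.63, 11.7, 20.4, 34.8 and 60.8%. In wild type the near-gene shares were 6.64, 12.4, 23.2, 42.2 and 52.8% and the gene-body shares 5.15, 10.6, 20.6, 34.7 and 61.2%. The pooled difference of near-gene minus gene-body peaks was −5.14 percentage points (−7.38 to −2.79) in the knockout and −3.60 (−5.47 to −1.63) in wild type. Within the classes of IP reads, an alternative added after seeing the data, it turned to 0.983 in the knockout and 1.70 in wild type. Peaks farther than 10 kb had a partner in 13.9, 24.5 and 49.2% of the 3 upper classes of the knockout list, below the near-gene shares there. In the same classes of wild type the farther peaks had one in 18.8, 37.3 and 59.8%.

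**Figure D3:**
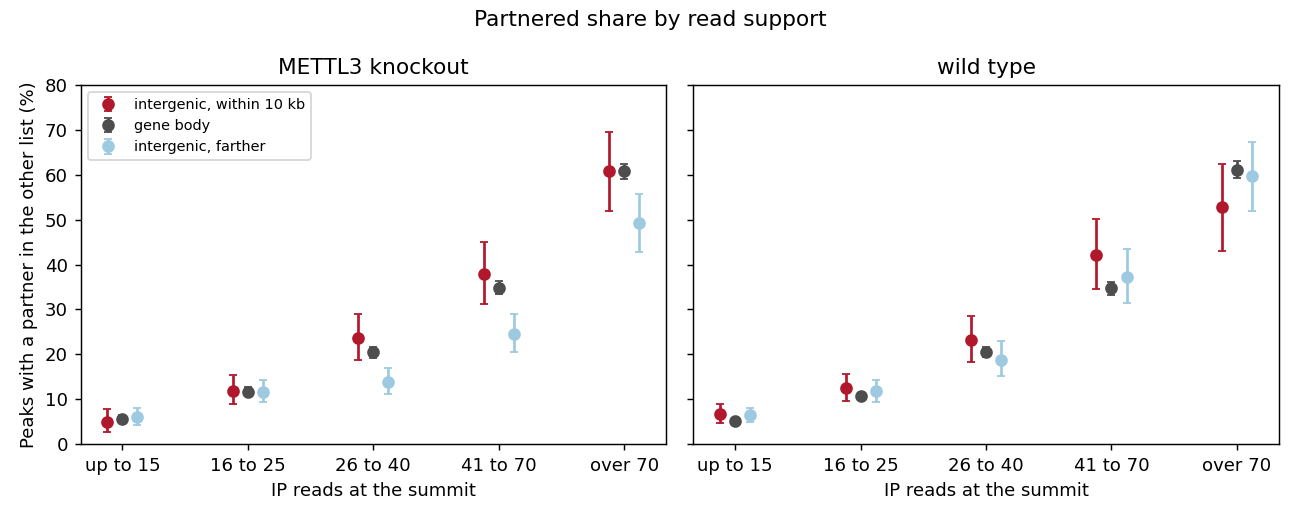
Percentage of peaks with a partner in the other list (vertical axis) by the number of IP reads at the summit (horizontal axis), for the METTL3 knockout list on the left and the wild-type list on the right. Points are shares with 95% Clopper-Pearson intervals. Near-gene intergenic peaks, in red, follow gene-body peaks, in grey, from 4.91 to 60.9% in the knockout list, while knockout peaks farther than 10 kb lie lower from 26 reads upward.

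The partnered share was 20.7% downstream and 21.7% upstream in the knockout, a difference of −1.05 percentage points (−5.78 to 3.52). In wild type it was 16.4% downstream and 19.5% upstream, a difference of −3.12 (−7.18 to 0.801). Both differences changed sign when genes of every RefSeq type were counted as bodies, to 1.36 in the knockout and 0.245 in wild type. Among the 10000 strongest peaks of each list the wild-type difference was −8.66 (−17.8 to 0.272). By position, peaks beyond the 3′ end on the gene's strand had a partner in 21.4% of the knockout and 17.1% of the wild-type list. The share was highest for peaks beyond the 5′ end on the gene's strand, at 25.97% (19.2 to 33.6) in the knockout and 22.8% (17.2 to 29.3) in wild type, with intervals that overlap those of the other positions. The lncRNA gene APPAT alone supplied 5 of these 40 knockout and 6 of these 45 wild-type peaks. LOC100506076 supplied 2 more in the knockout and 5 more in wild type, and FLJ42627 2 more in each list. The share without these genes was not computed. Peaks that overlapped a pseudogene had a partner in 31.0% (24.2 to 38.5) of the knockout and 27.5% (21.3 to 34.3) of the wild-type list, against 19.6% of knockout and 16.2% of wild-type peaks that overlapped no annotated gene.

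Both genotypes could also mark the same side of a gene without overlapping peaks. Of the gene sides with a peak beyond the 3′ end on the gene's strand, 142 occurred in both lists, which is 34.9% of the 407 in the knockout and 27.6% of the 515 in wild type. Over gene sides of any position it was 377, or 32.4% of 1165 in the knockout and 26.04% of 1448 in wild type. This last count takes the side on the strand of the peak, so the lists can lie at opposite ends of a gene. At 97 of the 142 the knockout list had a partnered peak on the downstream side of the gene. That count also takes divergent pairs beyond the 5′ end, as at LOC105372952, so it is an upper bound for pairs beyond the 3′ end. Of the 378 knockout peaks in this position without a partner, 85 (22.5%) still had a wild-type peak elsewhere on the same side of the gene. For the 495 such wild-type peaks it was 86 (17.4%). These shares were close to those of the other positions, which ran from 18.5 to 21.1% in the knockout and from 15.1 to 17.5% in wild type.

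The genes with the most peaks on 1 side showed how such runs compared between the lists. CHD1L, which encodes a chromatin remodeller, had 5 knockout and 5 wild-type peaks beyond its 3′ end on its own strand. The knockout peaks began 55, 5740, 8040, 9295 and 9991 bp past the gene with folds of 5.72, 10.5, 5.32, 5.86 and 9.91, and 2 of them had a wild-type partner. The wild-type peaks began 3308, 4720, 6318, 7809 and 8889 bp past it with folds of 5.02, 7.01, 6.45, 6.09 and 7.88. The run was thus present in both lists while most of its peaks fell at different places.

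WDR4, the non-catalytic subunit of the tRNA m7G methyltransferase, had 4 knockout peaks between 1988 and 5555 bp past its 3′ end, with folds from 3.97 to 8.82. Its 3 wild-type peaks lay between 2407 and 6154 bp with folds from 2.73 to 3.82, and 2 positions were common to the lists. These peaks were among the better covered, with 75 to 175 IP reads in the knockout and 67 to 108 in wild type. COPS8, a subunit of the COP9 signalosome, had knockout peaks 1201 and 5532 bp past its 3′ end (folds 7.95 and 8.80), both partnered at 1233 and 5538 bp in wild type (8.50 and 7.97). Wild type had 2 more, at 5062 and 9678 bp. HMX1, a homeobox transcription factor gene, had 0 knockout peaks and 4 wild-type peaks in the divergent orientation, from 283 to 8931 bp before its start, with folds of 5.55 to 8.51 on 15 to 32 IP reads.

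Upstream runs on the strand of the gene were found beside lncRNA genes. APPAT had 6 peaks in each list within 10 kb before its 5′ end, of which 5 knockout and 6 wild-type peaks had a partner. Their folds ran from 3.71 to 7.95 in the knockout and from 4.20 to 11.97 in wild type, on 104 to 263 IP reads in the knockout and 86 to 165 in wild type. LOC100506076, also on chromosome 2, had 3 knockout peaks from 480 bp and 6 wild-type peaks from 551 bp outward, and 1 knockout peak there spanned 2565 bases. FLJ42627 had 4 knockout peaks with folds up to 14.4 and 3 wild-type peaks with folds up to 10.1, and 2 positions were common. LOC124901661 had 4 knockout peaks beyond its 3′ end, with folds from 5.94 to 10.1, and 0 wild-type peaks. LOC105372952 lies in the immunoglobulin lambda locus and had 3 knockout peaks and 1 wild-type peak beyond its 3′ end with no overlap, and 1 divergent pair with folds of 22.04 in the knockout and 12.8 in wild type. Beside LOC124902957, whose strand is not known here, the knockout had 2 upstream peaks and wild type 5.

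**Figure D4:**
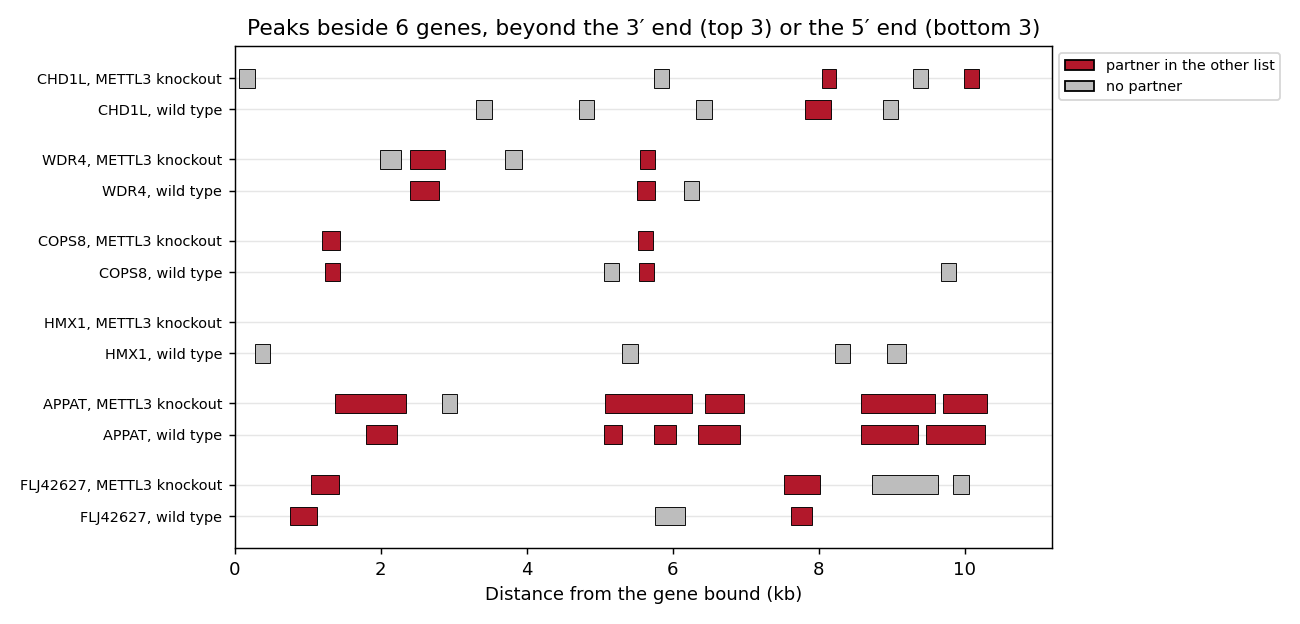
Peaks beside 6 genes by distance from the gene bound in kb (horizontal axis), with the METTL3 knockout row above the wild-type row of each gene. Boxes span the length of each peak, red where the other list held an overlapping peak on the strand and grey where it did not. The partner of the outermost CHD1L knockout peak begins beyond 10 kb and is not drawn, and HMX1 has peaks in the wild-type row alone.

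Among peaks held by both lists, those of highest knockout fold on the downstream side lay beside LOC107986338 (chr4:190122434-190123070), with folds of 48.0 in the knockout and 52.6 in wild type, and LOC102723872 (chr7:10002-10286), with 25.96 in the knockout and 28.8 in wild type. The coding gene among the 4 strongest was SLMAP, which encodes a membrane-anchored component of the STRIPAK complex. Its peak 3231 bp past the 3′ end (chr3:57933244-57933540, plus strand) had folds of 21.8 in the knockout on 98 IP reads and 7.75 in wild type on 75, and the gene body carried 8 knockout and 15 wild-type peaks. On the upstream side, a peak opposite to SMAD9, a transcription factor of BMP signalling, had folds of 17.4 in the knockout and 21.4 in wild type. A peak beside MMP19, a matrix metalloproteinase gene, had folds of 16.7 in the knockout and 15.1 in wild type. One before the 5′ end of PPIL2, a cyclophilin-family gene, had 16.7 in the knockout and 5.63 in wild type. One beside LOC124900841 had 21.95 in the knockout and 4.16 in wild type. Over all 285 pairs the median fold was 7.83 in the knockout and 7.87 in wild type, and Spearman's rho between the folds was 0.205 across pairs, which come from the same 2 sets of libraries and are no replicates.

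**Figure D5:**
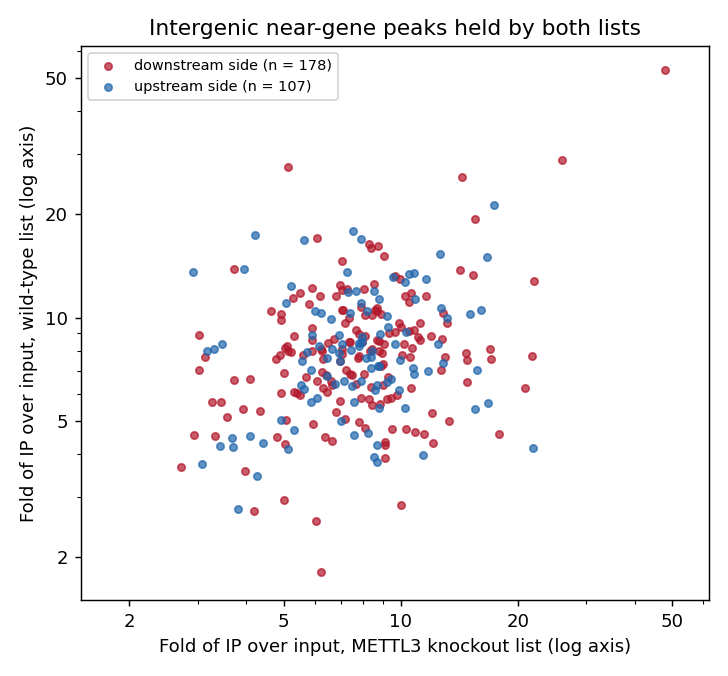
Fold of IP over local input at 285 near-gene intergenic peaks with a partner, in the METTL3 knockout list (horizontal axis) and at the strongest partner in the wild-type list (vertical axis), both on log axes. Points are pairs, red for the downstream and blue for the upstream side of a gene. Most pairs form a broad cloud around the medians of 7.83 and 7.87, and the pair beside LOC107986338 stands alone at 48.0 and 52.6.

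Peaks found in the knockout list alone were led on the downstream side by TXNDC16, a thioredoxin-domain gene, 2383 bp past its 3′ end (chr14:52427844-52428213, minus strand, fold 22.5 on 80 IP reads). The body of TXNDC16 had 0 knockout and 4 wild-type peaks. LOC105375451 followed with a fold of 19.8, CHIC1 with 19.4, and HERC3, a HECT-type ubiquitin ligase gene, with 19.0 at 94 bp from its end (chr4:88708633-88709353). All 4 lay beyond the 3′ end on the gene's strand. On the upstream side LOC107985549 had a fold of 32.8 (chr22:28833219-28833512), SHOC1, a meiotic recombination gene, 19.5, LNCRNA-ATB 15.7 and BCL2L14, of the BCL2 family, 15.3. The SHOC1 and BCL2L14 peaks ran opposite to these genes beyond their 3′ ends, and neither SHOC1 nor BCL2L14 had a body peak on its own strand in either list.

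In the wild-type list alone, the strongest downstream peaks again all lay beyond 3′ ends on the gene's strand. They were beside DHRS4L2, a dehydrogenase-family gene (chr14:24015941-24016410, fold 19.1), ZSCAN5A, a zinc finger gene (18.3), BBS4, a subunit of the ciliary BBSome (18.1), and TMEM242, a mitochondrial membrane protein gene (15.97). ZSCAN5A had 0 knockout and 6 wild-type peaks in its body and BBS4 0 knockout and 2 wild-type, whereas DHRS4L2 had 4 knockout and 2 wild-type peaks and TMEM242 3 knockout and 0 wild-type. The strongest upstream peaks included those beside OR6C68, an olfactory receptor gene (17.5), GLDC, the glycine decarboxylase gene (15.9), and COL4A5, a collagen chain gene (15.3). That of OR6C68 was on the gene's strand and those of GLDC and COL4A5 opposite to it. The body of COL4A5 held 10 knockout and 11 wild-type peaks. These peaks were ranked by their fold in 1 list, and a missing partner means only that no peak of the other list overlapped.

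As the base rate for the gene lists, 758 of 19974 coding genes (3.79%) were the nearest gene of a near-gene intergenic knockout peak and 939 (4.70%) of a wild-type peak. Of 22 genes that write, read or remove m6A, 4 (18.2%, 5.19 to 40.3) had together 5 knockout peaks and 1 (4.55%, 0.115 to 22.8) had 2 wild-type peaks. Of these 7 peaks 0 had a partner, a number too small to set against the shares of 21.1% in the knockout and 17.5% in wild type. RBM15, an adaptor of the writer complex, had 2 knockout peaks on its strand 556 and 3483 bp past its 3′ end, with folds of 4.10 and 7.09 on 116 and 73 IP reads. METTL16, a methyltransferase of U6 RNA, had a divergent knockout peak 89 bp before its start with a fold of 7.47, and IGF2BP2, an m6A-binding protein gene, one at 1422 bp with 6.83. METTL3 itself, given because it is the targeted gene, had a knockout peak on the opposite strand 1982 bp before its 5′ end (fold 4.99 on 10 IP reads, chr14:21513322-21513741). YTHDF1, a cytoplasmic m6A reader gene, had 2 divergent wild-type peaks, 1276 and 2550 bp before its start, with folds of 13.8 and 8.61.

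The list of zinc finger genes had 31 knockout peaks beside 26 of 517 genes (5.03%, 3.31 to 7.28) and 51 wild-type peaks beside 44 (8.51%, 6.25 to 11.3). Beyond the 3′ end on the gene's strand lay 25 of the 31 in the knockout and 30 of the 51 in wild type, while of all peaks nearest to coding genes 382 of 886 (43.1%) did so in the knockout and 468 of 1100 (42.5%) in wild type. These bases include peaks beside genes of unknown strand, which cannot be placed there. Such peaks were 27.8% of all near-gene peaks in the knockout and 25.6% in wild type, and the zinc finger peaks were not matched for this. A partner was found for 7 peaks of each list. The median fold was 7.06 in the knockout and 7.98 in wild type, where all near-gene intergenic peaks had 7.06 in the knockout and 7.35 in wild type. The knockout peak 4108 bp past ZNF708 (chr19:21286822-21287052, minus strand) had a fold of 5.12 on 103 IP reads. Its wild-type partner at 4095 bp (chr19:21286810-21287065) had 27.4 on 75 IP reads, the highest of the wild-type zinc finger peaks. In wild type, ZNF711 and ZNF552 had wild-type peaks of 14.9 and 13.5 with no partner. A pair opposite to ZNF385D, 9406 bp before its start, had folds of 14.8, the highest of the knockout zinc finger peaks, in the knockout on 183 IP reads and 7.51 in wild type on 179. The remaining lists are short and gave 0 to 2 genes with a peak in a list, so their shares are not read against the base rate. Of 10 histone acetyltransferase genes, EP300 alone had a peak, before its 5′ end on its strand, in both lists (3.81 in the knockout and 2.77 in wild type). Of 74 replication-dependent histone genes, H2AC6 had 1 knockout peak (6.16) and wild type had 0. Of 21 genes of 3′ end processing, the poly(A) polymerase gene PAPOLA and CPSF2 had knockout peaks past their 3′ ends (9.61 and 8.27), and CPSF3 a wild-type peak on the opposite strand (6.29). Of 18 early-response genes, IER5 had 1 knockout peak (8.02) and wild type had 0.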

How the data were processed

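Chromosome-associated RNA of METTL3 knockout and wild-type HEK293T cells was m6A-immunoprecipitated and sequenced with stranded libraries, 2 IP and 2 input samples per genotype, per the labels' protocols. The submitters' processing notes name the build hg38 and the tools MACS2 2.2.7.1, HISAT2 2.2.1 and SAMtools 1.15.1. The calling threshold, the depth of each library and whether replicates were pooled are not given in the sources used here. The authors deposited 1 peak list per genotype. Its fold column is the ratio of IP to local input on a linear scale, and the p-value and q-value columns are deposited as −log10 values. The deposited score column was not used.

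Peaks were assigned to the nearest of 38151 protein-coding or lncRNA gene bodies in RefSeq's GRCh38.p14 table, which has the same build as the lists. Gene strand came from the RefSeq promoter table for 27195 of these. Densities divide peaks by intergenic bases at the same distance. Whole IP reads were solved from fold and p for at least 99.9925% of peaks of a strand, within a relative tolerance of 0.05% on the −log10 p. Shares other than those of motifs have Clopper-Pearson and densities exact Poisson intervals. With 1 list per genotype no p-value was computed. Overlaps, sides and read recovery were tested on simulated data. Python 3.11.15, numpy 2.4.6, pandas 2.3.3, SciPy 1.17.1 and matplotlib 3.10.9 were used. The members and lists were chosen with earlier results of these data known. Peaks were named by fold (4 per side for shared peaks and for those of 1 list), by the 6 gene sides with most peaks per list, by the 3 on either side of the 10 kb limit (of these the nearest is given) and up to 4 peaks per gene list, and IGF2BP2, METTL3 and further members of short lists were added after their values were seen. One peak that this rule names is not reported here. Alternatives covered the overlap rule, the threshold, the distance limit, the gene types, the reference point and the choice of peaks.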

Additional observations from a re-analysis of the deposited data

How the results depend on the processing

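Of 74 alternative values, 54 stayed within the interval of the main value with the same sign, 11 moved and 9 changed sign. The partnered share was 17.8% in the knockout and 14.5% in wild type with a reciprocal overlap of at least 50%, 17.3% in the knockout and 14.1% in wild type with summits within 100 bp, and 26.3% in wild type among the 10000 strongest peaks of each list. The share beyond the downstream bound was 60.7% in the knockout and 62.1% in wild type among the 10000 strongest, 60.3% in the knockout within 1 kb, and 75.7% in the knockout and 75.2% in wild type among peaks on the gene's strand. Downstream minus upstream partnered share changed sign in the knockout with reciprocal overlap (0.427), summits (0.688), bodies of every gene type (1.36), 1 peak per gene and side (2.07) and within read classes (0.927). In wild type it changed sign with bodies of every gene type (0.245) and reached −8.66 among the 10000 strongest. Near-gene minus gene-body partnered share changed sign within read classes in both lists (0.983 in the knockout and 1.70 in wild type) and among the 10000 strongest in wild type (0.119). The cause was not tested, except that a reciprocal overlap of at least 50% leaves fewer pairs by construction. The summit rule requires no overlap, so its lower shares are not fixed in that way. The read classes were added after seeing the data. No paired analysis was possible because neither list holds values per replicate, and leaving out replicates could not be run for the same reason. Peaks of up to 15 IP reads had a partner in 4.91% of the knockout and 6.64% of the wild-type list, and whether low read numbers set this was not tested.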

Other observations

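The first 20 kb of the chromosomes held 9 knockout and 13 wild-type peaks of any class, and all of them were on the minus strand, with 8 partnered in each list. TERRA, the telomeric repeat RNA, is transcribed toward chromosome ends, which is the minus strand at a chromosome's start, and whether these peaks lie on it was not tested. Of these peaks 3 in the knockout and 4 in wild type were near-gene intergenic peaks. They included pairs on chromosome 7 beside LOC102723872 (folds 25.96 in the knockout and 28.8 in wild type), on chromosome 10 beside LOC102723376 (12.9 in the knockout and 10.4 in wild type) and on chromosome 12 beside LOC124905358 (8.38 in the knockout and 15.96 in wild type). Over peaks of any class, those with a partner began between bases 10002 and 10120, and those without between 14646 and 19131. The latter included wild-type peaks from bases 14646 and 17794 of chromosome 9, in the body of WASHC1 and on its strand.

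Some near-gene peaks fell on short RNA genes. In wild type a peak that spans RNU6-9, a U6 small nuclear RNA gene, lay 192 bp from MED16 with a fold of 13.2 on 42 IP reads. Another wild-type peak, 1193 bp past MRPS31, spanned the microRNA gene MIR320D1 with a fold of 10.5 on 35 IP reads, and one lay at SNAR-A11 with 8.42 on 15 IP reads. The knockout list had no overlapping peak at any of the 3.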
